A study of Mus musculus with 6 samples.

Results

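Translation initiation factors are the 52 genes, of 17577 listed, whose symbols begin with Eif and a digit. Of 55 symbols that match, 3 were left out of the set, Eif4e1b, Eif4enif1 and the kinase gene Eif2ak3. They fall into 14 groups by the factor they encode. Their mRNA levels were compared between germinal vesicle (GV) oocytes, the immature oocytes held in prophase of meiosis, of Bnc1tr/tr and wild-type (WT) mice, with 3 libraries in each group. Bnc1tr/tr mice are homozygous for a small deletion in Bnc1 that shifts the reading frame and shortens basonuclin 1, a zinc finger protein of germ cells, and the allele is present in every cell of the animal. WT mice carry 2 intact alleles, and both groups were 12-week-old C57BL/6 J females whose ovaries had been stimulated with gonadotropin before the oocytes were collected. Each cDNA was made from a single oocyte by Smart-seq2, in which polyadenylated RNA is copied from an oligo-dT primer and amplified. The values are FPKM, fragments per kilobase of transcript scaled to the mapped fragments of a library, so levels of different genes are given per length.

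Initiation begins when eIF2, charged with the initiator tRNA, joins the small ribosomal subunit together with eIF1, eIF1A, eIF3 and eIF5. The eIF4 factors bring the mRNA: eIF4E holds the cap, eIF4G is the scaffold, eIF4A is the helicase, and the 4E-BP proteins hold eIF4E away from eIF4G. eIF2B recharges eIF2 with GTP, the eIF2 kinases block that step, and eIF5B joins the large subunit. A full-grown oocyte makes little new RNA and relies on stored mRNA, so the regulation of translation is a main control of its maturation.

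Bnc1 itself, the mutated gene, was at 9.04, 6.51 and 5.83 FPKM in the Bnc1tr/tr libraries and at 13.17, 12.54 and 16.23 FPKM in WT (log2 fold change -0.89 ± 0.20 SE, limma adjusted p = 0.009). The deletion leaves most of the transcript in place, so this level is a partial check of the labels. Depth, read from the spacing of the lowest values, was put at 13.1 to 21.4 M (mega) fragments per library, and 10682 to 11035 genes reached 1 FPKM in Bnc1tr/tr against 9518 to 9748 in WT. Oocyte markers were listed for 12 of 12 genes and summed to 15005 to 16392 FPKM in Bnc1tr/tr and 16850 to 18671 FPKM in WT, with 2 of them, Zp2 and Nlrp5, called lower. Granulosa markers (10 of 12 listed) summed to 40.2 to 58.58 FPKM against 21.69 to 38.93 FPKM, with 1 of 4 tested called higher, Fshr (5.25 against 0.35 FPKM on average, adjusted p = 0.00011), and the defining gene Foxl2 at 0 in all Bnc1tr/tr libraries. Most of that sum was Cyp19a1, which averaged 35.1 against 23.3 FPKM with overlap and was not called. Fshr had a mean of at least 1 FPKM, the minimum for testing, only through its Bnc1tr/tr libraries. Nr5a2 and Inhba also averaged higher in Bnc1tr/tr, while Inha (0.693 against 3.42 FPKM), Hsd17b1, Fst, Amhr2 and Has2 averaged lower. Theca markers (6 of 7 listed) summed to 6.48 to 8.15 FPKM against 0.78 to 2.54 FPKM, with the 1 tested gene, Cyp11a1, called higher (5.63 against 1.26 FPKM on average, adjusted p = 0.0013). Over all tested genes, 24.1% were called higher and 7.68% lower. Immune and blood markers (6 of 6 listed) summed to 19.09, 60.32 and 1.09 FPKM in Bnc1tr/tr and to 1.39 to 3.0 FPKM in WT. Lyz2 was at 5.81, 47.97 and 0 FPKM in Bnc1tr/tr and at 0 in WT. Cd68 was at 12.2, 3.64 and 0.96 FPKM in Bnc1tr/tr and at 2.94, 1.82 and 1.39 FPKM in WT, and was not called. The part of these transcripts in the results below was not tested.

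Of the 52 genes, 47 had a mean of at least 1 FPKM and were tested with limma on log2(FPKM + 1). A gene was called when its adjusted p was under 0.05 and its log2 fold change was beyond 0.5 in either direction. Called higher in Bnc1tr/tr were 4 genes, Eif4ebp1, Eif1a, Eif1 and Eif2b5, or 8.51% of those tested, where 24.1% of all 10560 tested genes were called higher. Called lower were 4 genes, Eif3f, Eif3g, Eif2b2 and Eif4e3, again 8.51%, where 7.68% of all tested genes were called lower. With values as deposited, the share called lower was thus near that of all genes and the share called higher was below it. In either direction 31.8% of all tested genes were called. After median-ratio scaling of the libraries 4 initiation factor genes were called higher and 12 lower, where 18.3% and 14.7% of all genes were, and after quantile normalization 4 and 4, where 15.4% and 17.5% were. The share called lower was thus above that of all genes after median-ratio scaling and below it after quantile normalization. With values as deposited, the other 39 had log2 fold changes from -0.48 to 0.72 and were not called. With Bnc1tr/tr replicates 1 and 2, which carried the immune and blood transcripts, both left out, the remaining Bnc1tr/tr library was assumed to vary like the WT libraries; the 8 called genes kept their direction, but 1 was called higher (Eif4ebp1, log2 fold change 1.98, limma adjusted p = 0.047) and 0 lower, where 7.29% and 1.04% of all tested genes were. The log2 fold changes were then 1.45 (Eif1a), 1.04 (Eif2b5) and 0.95 (Eif1) among the genes called higher in the main fit. Those called lower in the main fit were at -0.95 (Eif3f), -0.83 (Eif3g), -0.50 (Eif2b2) and -0.38 (Eif4e3).

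The median log2 fold change was -0.02 over the initiation factor genes and 0.15 over all tested genes, and 17 of the 47 lay above the median of all genes and 30 below. Relative to that median, the 4 higher genes were at 2.07 (Eif4ebp1), 1.57 (Eif1a), 0.89 (Eif1) and 0.87 (Eif2b5), and the lower ones at -0.98 (Eif3f), -0.82 (Eif3g), -0.66 (Eif2b2) and -0.65 (Eif4e3). All 3 Bnc1tr/tr libraries were above all WT libraries in 8 tested genes, where 32.7% of all tested genes did so, and below them in 10, where 14.1% did so. The set took 0.868 ± 0.0362% (SD, n = 3) of the FPKM total in Bnc1tr/tr and 0.871 ± 0.0592% (SD, n = 3) in WT. The groups overlapped in this share, while single genes were called in both directions; the summed FPKM overlapped as deposited (5929 ± 150 against 6019 ± 181, SD) and was lower in every Bnc1tr/tr library after median-ratio scaling (5444 ± 206 against 6444 ± 255). In WT, 20 of the 52 genes averaged 100 FPKM or more, 19 were between 10 and 100, 7 between 1 and 10, and 6 under 1.

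**Figure D1:**
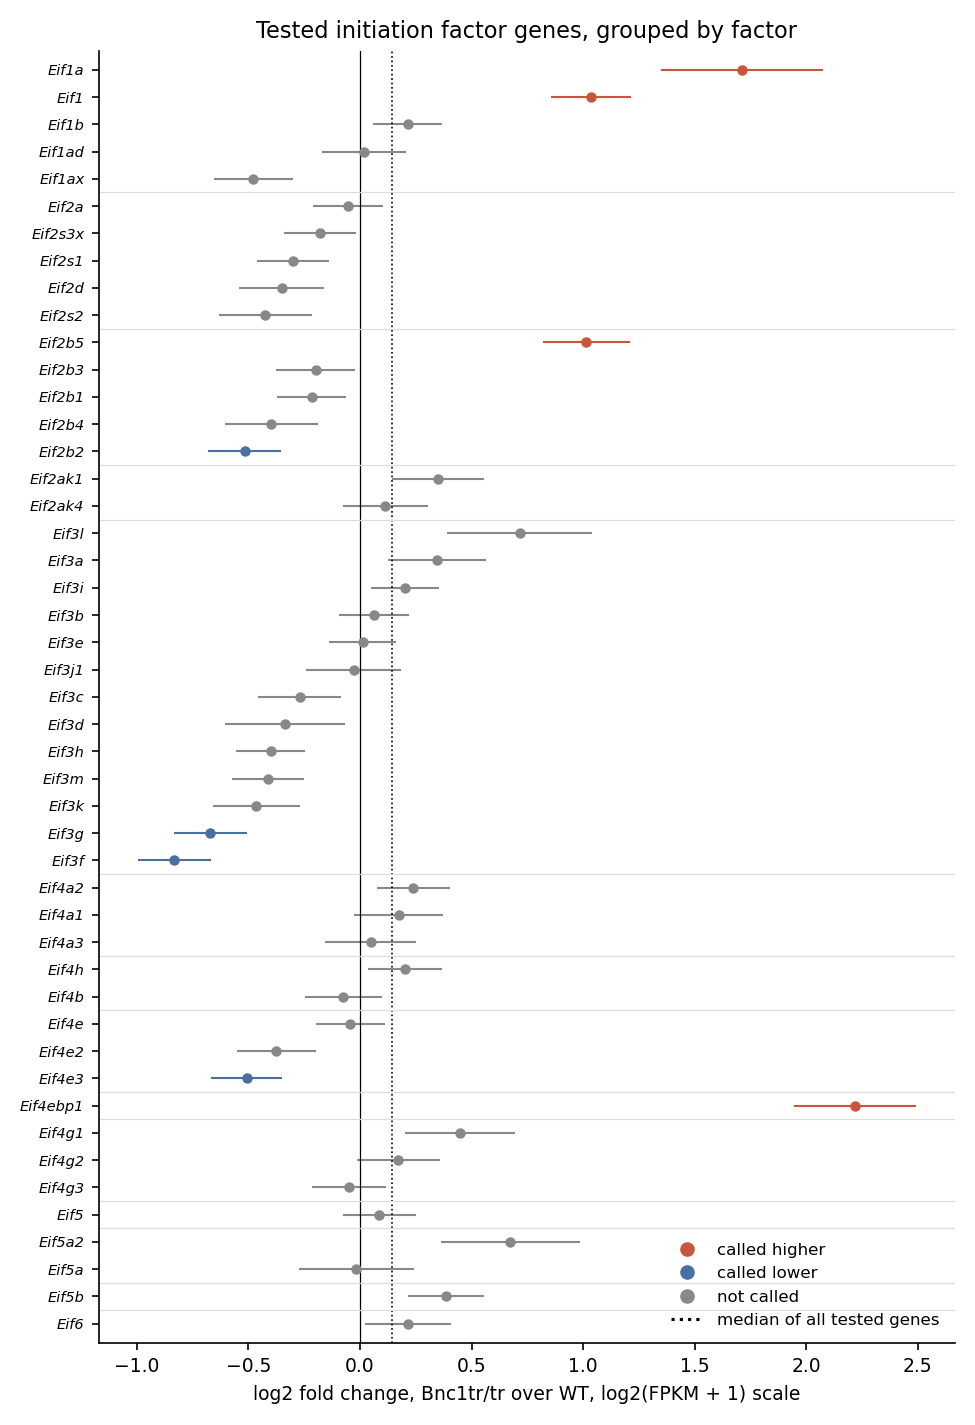
Log2 fold change (Bnc1tr/tr over WT, log2(FPKM + 1) scale, x axis) of the 47 tested initiation factor genes with SE bars, grouped by factor; coloured points are the 4 genes called higher and the 4 called lower. The dotted line is the median of all tested genes, 0.15, and 30 genes lie below it.

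Promoters of 4 called genes are shown because, among called genes with a promoter entry, theirs were lost under the fewest alternatives. Each is the 250 bases before an annotated start (RefSeq, GRCm38.p6), written 5′ to 3′ on the gene's strand, and capitals mark matches to any of 5 motifs searched on both strands: TATAAA (the core of the TATA box), CCAAT (the core of the CCAAT box), GGGCGG (the core of the GC box), CACGTG (an E-box) and TGATGNAA (the core of the composite element that ATF4 binds). They lie at chr11:100319699-100319948 (plus strand, Eif1), chr16:20498567-20498816 (plus, Eif2b5), chr7:108934165-108934414 (plus, Eif3f) and chr9:20898591-20898840 (minus, Eif3g).
Eif1: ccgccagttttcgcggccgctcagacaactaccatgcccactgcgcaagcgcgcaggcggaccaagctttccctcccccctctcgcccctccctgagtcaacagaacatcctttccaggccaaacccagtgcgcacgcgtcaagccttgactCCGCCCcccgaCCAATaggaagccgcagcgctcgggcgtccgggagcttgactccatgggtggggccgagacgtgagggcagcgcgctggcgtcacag
Eif2b5: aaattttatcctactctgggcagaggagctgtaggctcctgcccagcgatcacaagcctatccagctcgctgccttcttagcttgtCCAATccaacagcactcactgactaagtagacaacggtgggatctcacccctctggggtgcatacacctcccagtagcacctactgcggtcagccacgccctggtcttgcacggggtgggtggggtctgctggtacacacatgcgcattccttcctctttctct
Eif3f: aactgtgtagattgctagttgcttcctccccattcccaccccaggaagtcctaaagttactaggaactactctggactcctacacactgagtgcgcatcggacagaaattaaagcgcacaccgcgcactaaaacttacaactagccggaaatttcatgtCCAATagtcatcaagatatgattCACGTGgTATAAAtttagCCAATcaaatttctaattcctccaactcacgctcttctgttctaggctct
Eif3g: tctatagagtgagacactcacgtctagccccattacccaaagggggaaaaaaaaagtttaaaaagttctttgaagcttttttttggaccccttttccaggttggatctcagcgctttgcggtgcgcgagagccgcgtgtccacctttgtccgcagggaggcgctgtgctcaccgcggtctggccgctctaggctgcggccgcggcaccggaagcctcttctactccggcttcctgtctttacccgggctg

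The Eif1 window held CCAAT and, on the opposite strand, GGGCGG. The Eif2b5 window held CCAAT, and the Eif3f window held CCAAT in 2 places, CACGTG, which reads the same on both strands, and TATAAA. The Eif3g window held no match. Over 51 promoters of 41 initiation factor genes, GGGCGG stood in 66.7% against 32.7% of 32851 promoters of all genes, CACGTG in 21.6% against 6.02%, CCAAT in 23.5% against 33.8%, TATAAA in 7.84% against 12.4% and TGATGNAA in 1.96% against 3.45%. Genes with a match were called in both directions and not called, and a match is a description of letters in the window.

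On the log2(FPKM + 1) scale the largest change was in Eif4ebp1, which encodes 4E-BP1, the repressor that binds eIF4E until mTOR phosphorylates it. Its level was 36.36, 20.81 and 21.24 FPKM in Bnc1tr/tr and 6.62, 3.46 and 4.29 FPKM in WT. All 3 Bnc1tr/tr libraries were well above every WT library (log2 fold change 2.22 ± 0.27 SE, limma adjusted p = 0.00037). With a pseudocount of 0.1 the log2 fold change was 2.43 for Eif4ebp1 and 2.69 for Eif1a. The related genes Eif4ebp2 and Eif4ebp3 were below the 1 FPKM minimum, with means of 0.687 and 0.317 FPKM in Bnc1tr/tr and 0.653 and 0.513 FPKM in WT. The summed level of the 3 genes was 27.1 ± 9.22 FPKM (SD, n = 3) in Bnc1tr/tr and 5.96 ± 1.45 FPKM in WT, with Eif4ebp1 the main part in both groups.

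Eif4e, the cap-binding protein that 4E-BP1 holds, was at 426.17, 485.78 and 432.39 FPKM in Bnc1tr/tr and at 441.7, 458.24 and 484.17 FPKM in WT. The groups overlapped, and the difference was not called (log2 fold change -0.04 ± 0.16 SE, limma adjusted p = 0.86). There were 18.5 ± 6.04 FPKM of Eif4e per FPKM of Eif4ebp1 in Bnc1tr/tr and 104 ± 33.7 in WT (SD, n = 3), a ratio chosen after its values were seen.

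Eif4e3, an atypical cap-binding relative of Eif4e, was at 150.67, 177.13 and 186.11 FPKM in Bnc1tr/tr and at 247.11, 240.24 and 241.93 FPKM in WT. The WT libraries were close together and all above the Bnc1tr/tr libraries (log2 fold change -0.51 ± 0.16 SE, limma adjusted p = 0.039). The call rested on every library: with any one of the 6 left out, the adjusted p was 0.051 to 0.12. The span of Eif4e3 (GRCm38.p6, chr6:99621879-99692873) overlaps those of Gpr27 and Gm52869, and 14.97% of its 31-base words occur in transcripts of other genes. Eif4e2, another cap-binding relative, was at 34.56, 43.87 and 42.39 FPKM against 46.2, 59.41 and 52.01 FPKM in WT, all lower but not called (adjusted p = 0.14).

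The scaffold genes were at lower levels than the cap-binding genes. Eif4g2, the member that lacks the eIF4E-binding part, was at 28.98, 20.16 and 23.86 FPKM in Bnc1tr/tr and at 19.45, 20.44 and 24.15 FPKM in WT. Eif4g1 was at 8.04, 4.23 and 6.46 FPKM against 4.95, 4.77 and 3.05 FPKM, and Eif4g3 at 9.65, 7.38 and 8.74 FPKM against 9.49, 8.69 and 8.49 FPKM. The groups overlapped for each of the 3 genes and none was called. Of the helicase genes, Eif4a3, which acts in the exon junction complex, was highest, at 231.44, 203.78 and 214.08 FPKM in Bnc1tr/tr and 262.49, 216.24 and 160.92 FPKM in WT. Other transcripts share 44.8% of its 31-base words.

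Eif4a1 was at 148.18, 100.49 and 103.65 FPKM in Bnc1tr/tr and 91.15, 103.74 and 113.45 FPKM in WT, and Eif4a2 at 81.32, 86.32 and 93.12 FPKM against 82.66, 67.69 and 70.59 FPKM. The helicase genes overlapped between groups and were not called. Of the 31-base words in the Eif4a1 transcripts, 67.5% also occur in transcripts of other genes, so its level is uncertain. The helicase helpers Eif4b (20.17, 18.69 and 18.11 FPKM against 23.1, 20.52 and 16.97 FPKM) and Eif4h (20.06, 19.41 and 17.02 FPKM against 17.95, 16.66 and 14.25 FPKM) were not called either.

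Among the eIF1 and eIF1A genes, which keep the scanning ribosome on the correct start codon, Eif1 was at 900.04, 786.14 and 770.26 FPKM in Bnc1tr/tr and at 377.94, 352.79 and 472.81 FPKM in WT. The groups were far apart for this abundant transcript (log2 fold change 1.04 ± 0.18 SE, limma adjusted p = 0.0024). Other transcripts share 37.2% of its 31-base words. Its paralogue Eif1b was at 429.35, 434.81 and 399.36 FPKM against 395.43, 354.88 and 340.79 FPKM and was not called (log2 fold change 0.21, which turns to -0.0081 after median-ratio scaling).

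Eif1a rose from 1.81, 1.28 and 0.12 FPKM in WT to 8.43, 4.1 and 4.26 FPKM in Bnc1tr/tr (log2 fold change 1.71 ± 0.36 SE, limma adjusted p = 0.0071). Every Bnc1tr/tr library was above every WT library, WT replicate 3 was lowest, and without it the log2 fold change was 1.32 (limma adjusted p = 0.0089). Transcripts of other genes share 6.81% of the 31-base words of Eif1a. Its X-linked paralogue Eif1ax, which was the highest initiation factor gene in WT, was at 414.85, 579.87 and 527.57 FPKM in Bnc1tr/tr and at 669.35, 702.64 and 729.99 FPKM in WT. All Bnc1tr/tr libraries were lower, but the difference was not called (log2 fold change -0.48 ± 0.18 SE, limma adjusted p = 0.071) unless the libraries were median-ratio scaled (-0.70, adjusted p = 0.024). The summed level of the 5 genes was 1762 ± 52.1 FPKM (SD, n = 3) in Bnc1tr/tr and 1476 ± 67.2 FPKM in WT, without overlap as deposited and with overlap after median-ratio scaling.

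**Figure D2:**
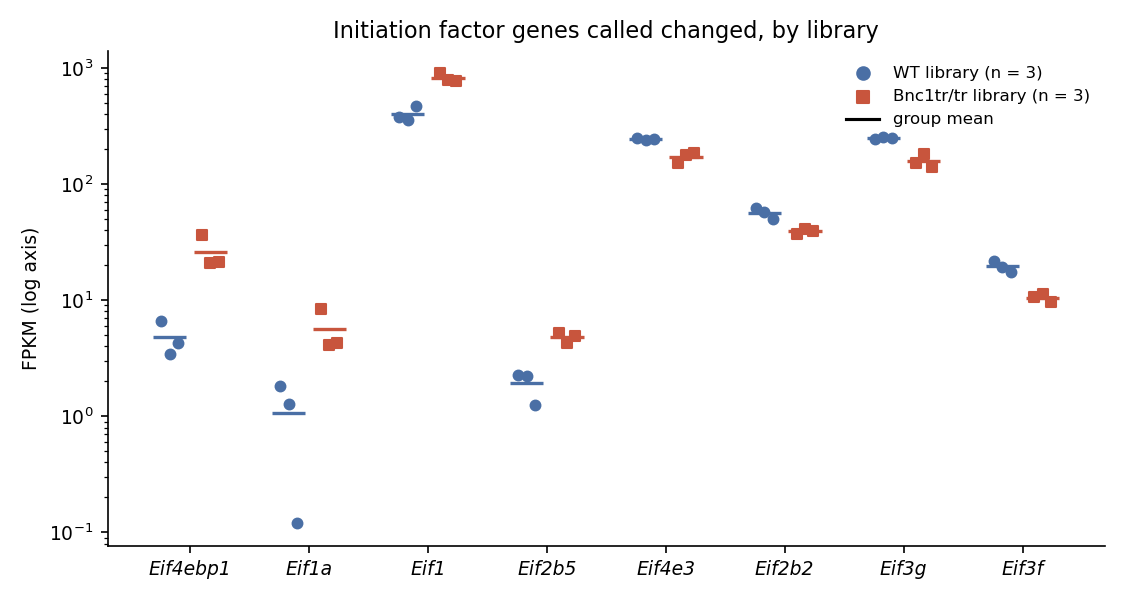
FPKM (log axis) in each library of the 8 initiation factor genes called, ordered by log2 fold change; circles are WT, squares are Bnc1tr/tr, and lines are group means of 3 libraries. In each gene the groups do not overlap, from Eif4ebp1 (26.1 against 4.79 FPKM on average) to Eif3f (10.5 against 19.5 FPKM).

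Paralogue ratios within a library do not depend on how libraries are scaled, apart from the pseudocount. Of 13 pairs listed, both genes passed the minimum in 9, and in 6 of these the groups did not overlap. As single genes, 32.7% of all tested genes lay above without overlap and 14.1% below. No such share was computed for ratios of other genes. With 3 against 3 libraries the exact permutation test cannot go below p = 0.10, the value of all 6 pairs (two-sided, 0.15 after Benjamini-Hochberg adjustment over the 9). The log2 ratio of Eif1b to Eif1 was -0.96 ± 0.11 in Bnc1tr/tr and -0.13 ± 0.29 in WT (SD, n = 3), that of Eif1ax to Eif1a 6.32 ± 0.74 and 8.51 ± 0.75 (a difference of -2.19, or -3.17 with a pseudocount of 0.1), and that of Eif4e3 to Eif4e -1.39 ± 0.15 and -0.92 ± 0.08. The ratio differed by -0.33 for Eif4e2 to Eif4e, by -0.50 for Eif4g3 to Eif4g1 and by 0.28 for Eif4h to Eif4b. Groups overlapped for Eif4a2 to Eif4a1, Eif4g2 to Eif4g1 and Eif5a2 to Eif5a.

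**Figure D3:**
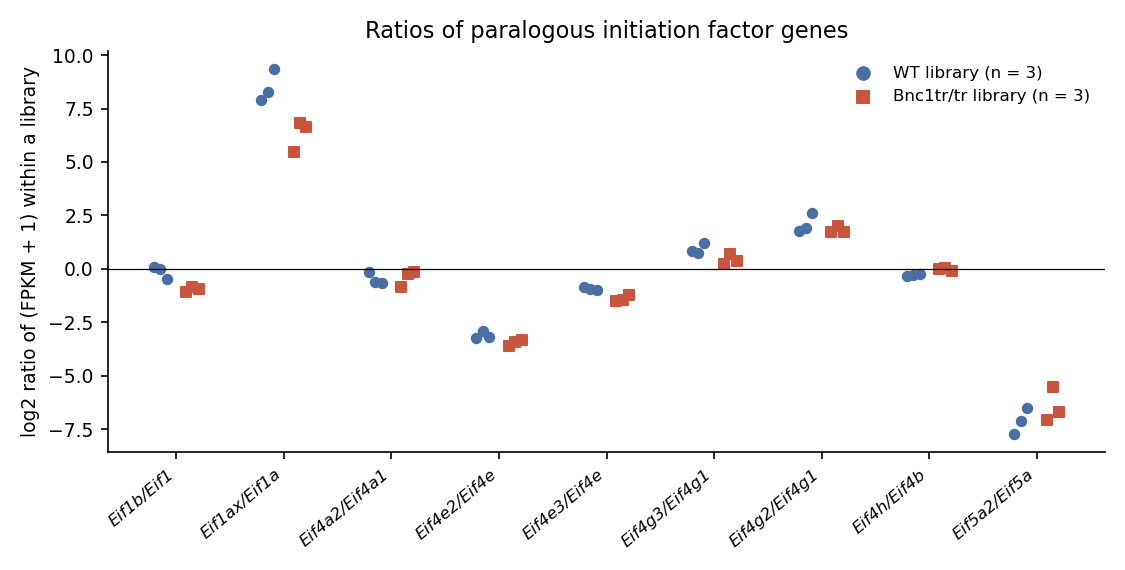
Log2 ratio of (FPKM + 1) of 9 pairs of related initiation factor genes in each library, 3 WT (circles) and 3 Bnc1tr/tr (squares). The groups do not overlap in 6 pairs, and the widest gap is in Eif1ax/Eif1a, with a difference of -2.19 at a pseudocount of 1.

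eIF3 is the scaffold that joins mRNA and small subunit. Of its 13 tested genes, limma called 0 higher, where 24.1% of all tested genes were, and 2 lower, where 7.68% were. Eif3f fell from 21.63, 19.38 and 17.51 FPKM in WT to 10.69, 11.24 and 9.58 FPKM in Bnc1tr/tr (log2 fold change -0.83 ± 0.16 SE, limma adjusted p = 0.0049). Eif3g, an RNA-binding subunit, fell from 244.47, 254.71 and 249.93 FPKM to 152.58, 179.85 and 139.73 FPKM (log2 fold change -0.67 ± 0.16 SE, limma adjusted p = 0.014). In both genes every WT library was above every Bnc1tr/tr library. The call of Eif3g was lost without Bnc1tr/tr replicate 3 (adjusted p = 0.055) and without WT replicate 2 (0.06).

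Eif3m, the most abundant eIF3 gene, was at 196.13, 246.16 and 207.95 FPKM in Bnc1tr/tr and at 296.74, 284.35 and 281.2 FPKM in WT. It shares 53.7% of its 31-base words with other transcripts, so its level is uncertain. All Bnc1tr/tr libraries were lower but the difference was not called (adjusted p = 0.085). Eif3l was at 140.15, 123.2 and 97.1 FPKM against 101.02, 89.73 and 41.01 FPKM, the largest positive difference among uncalled genes (log2 fold change 0.72 ± 0.32 SE, adjusted p = 0.13), and it was singled out after its values were seen. Eif3j2 was under the minimum, at 0.1, 0.07 and 0.2 FPKM against 0.89, 0.68 and 0.6 FPKM, and shares 94.9% of its 31-base words with other transcripts, mainly Eif3j1, so its own level is uncertain; Eif3j1, with 41.3% shared words, averaged 33.9 FPKM in Bnc1tr/tr and 35.4 FPKM in WT.

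The summed level of the eIF3 genes was 1119 ± 74.3 FPKM (SD, n = 3) in Bnc1tr/tr and 1330 ± 15.1 FPKM in WT, and the groups did not overlap as deposited, after median-ratio scaling or after quantile normalization. In FPKM, subunits of a complex were far from equal. Eif3m was at 287 FPKM and Eif3b at 10.2 FPKM in WT, a 28.3-fold range over 13 subunits. In Bnc1tr/tr the range was 20.6-fold. The part of transcript length and shared words in these ranges was not tested. Shorter transcripts were at higher levels, with a rank correlation of -0.51 between transcript length and WT level across the 47 genes and -0.27 across 10424 tested genes with a length; genes of one library are not independent.

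The eIF2B genes, the exchange factor of eIF2, included a called gene in each direction, where 24.1% of all tested genes were called higher and 7.68% lower. Eif2b5, the catalytic subunit, rose from 2.25, 2.24 and 1.26 FPKM in WT to 5.26, 4.28 and 4.92 FPKM in Bnc1tr/tr (log2 fold change 1.01 ± 0.19 SE, limma adjusted p = 0.0043). Eif2b2, a regulatory subunit, fell from 62.35, 57.8 and 49.82 FPKM to 37.13, 40.65 and 39.71 FPKM (log2 fold change -0.52 ± 0.16 SE, limma adjusted p = 0.039). Neither gene overlapped between groups, and the call of Eif2b2 was lost when any library but WT replicate 3 was left out (adjusted p of 0.076 to 0.13).

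Eif2b1, another regulatory subunit and the most abundant, was at 401.06, 391.21 and 416.4 FPKM in Bnc1tr/tr and at 503.66, 460.8 and 442.12 FPKM in WT, lower in all libraries but not called (adjusted p = 0.32). Eif2b1 was thus 245-fold above Eif2b5 in WT and 83.6-fold above it in Bnc1tr/tr. The summed eIF2B level was 630 ± 10.5 FPKM in Bnc1tr/tr and 753 ± 76.8 FPKM in WT.

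**Figure D4:**
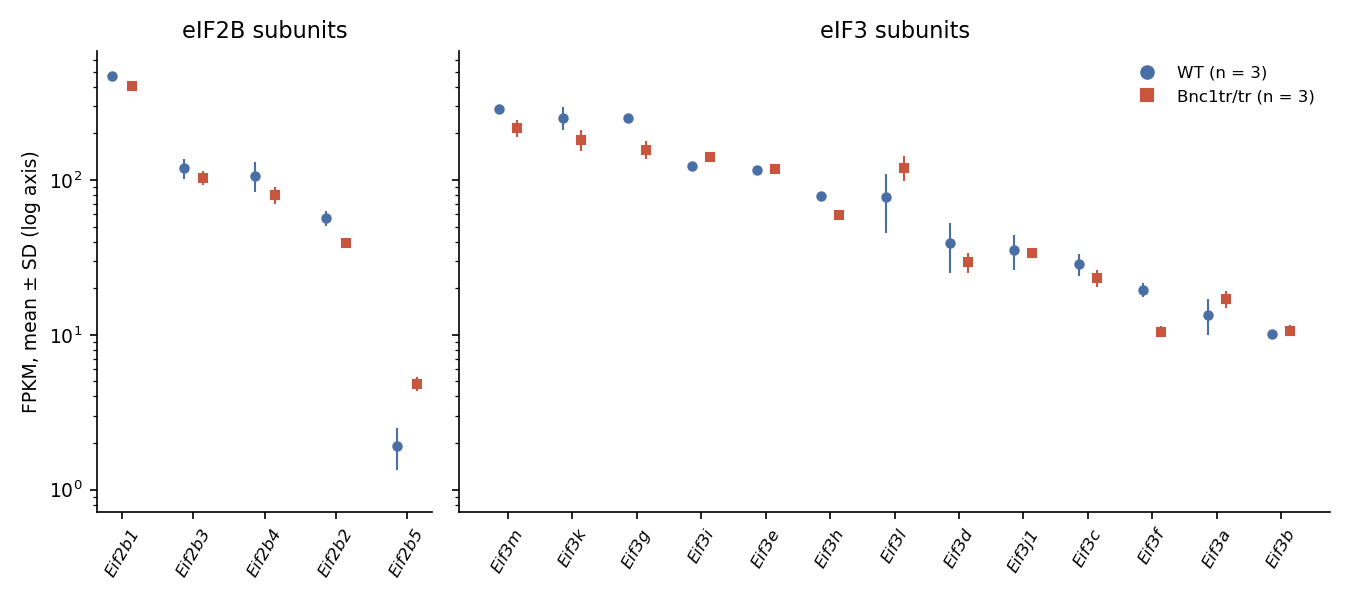
Mean FPKM with SD (log axis, n = 3) of the 5 eIF2B genes and 13 eIF3 genes in WT (circles) and Bnc1tr/tr (squares), ordered by WT level. Levels span 245-fold within eIF2B and 28.3-fold within eIF3 in WT, and Eif2b5 is the lowest eIF2B gene in both groups.

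Of the genes named for eIF2, 0 of 5 tested were called, where 31.8% of all tested genes were called in either direction. The 5 include Eif2a and Eif2d, which deliver initiator tRNA separately and are no subunits of eIF2. Eif2s2, the beta subunit, was at 143.21, 134.5 and 164.5 FPKM in Bnc1tr/tr and at 162.58, 182.77 and 258.71 FPKM in WT, with overlap, and shares 32.1% of its 31-base words with other transcripts. The summed level of this group was 291 ± 10.7 FPKM (SD, n = 3) in Bnc1tr/tr and 374 ± 40.7 FPKM in WT, without overlap as deposited and under both other scalings. Eif2s3y, on the Y chromosome, was at or under 0.07 FPKM in all libraries of these female mice. Of the kinase genes, Eif2ak1 was at 72.85, 62.29 and 62.59 FPKM against 65.3, 51.76 and 40.15 FPKM in WT. Of the 2 kinase genes tested, 0 were called, where 31.8% of all tested genes were.

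The genes of eIF5, eIF5A, eIF5B and eIF6 were not called. Eif5, which triggers GTP hydrolysis by eIF2, was at 192.37, 174.7 and 219.4 FPKM in Bnc1tr/tr and at 193.89, 185.02 and 171.35 FPKM in WT. Eif5a was at 311.42, 229.54 and 223.09 FPKM against 327.42, 287.93 and 174.8 FPKM, and its paralogue Eif5a2 at 1.35, 4.01 and 1.16 FPKM against 0.56, 1.1 and 0.91 FPKM. Groups overlapped for Eif5 and Eif5a, and Eif5a2 was the tested gene nearest the 1 FPKM minimum, with Eif4ebp2 the nearest of those under it.

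Eif5b was at 50.37, 49.42 and 55.86 FPKM in Bnc1tr/tr and at 35.12, 37.57 and 46.45 FPKM in WT, all higher but not called (adjusted p = 0.12). Eif6, which keeps the large subunit from joining early, was at 375.25, 408.81 and 312.23 FPKM against 355.9, 337.18 and 254.73 FPKM, with overlap.

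Of 47 listed genes of 4 further translation lists, 42 were tested, with 1 called higher and 1 lower, where 24.1% and 7.68% of all tested genes were. Elongation and release genes had 1 of 12 called higher, Pelo, which rescues stalled ribosomes, at 4.78, 4.12 and 4.28 FPKM in Bnc1tr/tr and 2.03, 1.79 and 1.64 FPKM in WT (log2 fold change 0.94 ± 0.16 SE, limma adjusted p = 0.0021). The mTOR and MNK control list had 1 of 11 called lower, Pdcd4, an inhibitor of eIF4A, at 13.63, 13.41 and 16.33 FPKM against 29.3, 28.36 and 37.27 FPKM (log2 fold change -1.07 ± 0.18 SE, limma adjusted p = 0.002). In both genes the groups were well apart. Of the poly(A) and cap binding genes 0 of 7 were called, and of the other initiation helpers 0 of 12, with median log2 fold changes of -0.30 and 0.07 where the median of all tested genes was 0.15.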

How the data were processed

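Single GV oocyte cDNA of Bnc1tr/tr and WT mice was sequenced in 3 libraries per group, and groups came from the genotype labels. Neither the labels nor the paper says whether each oocyte came from a different mouse. The authors deposited FPKM per gene and library; the submitters' processing notes name HISAT2 2.0.4, Bowtie2 2.2.5, RSEM 1.2.12 and GRCm38.p6, without their roles. Values were tested as log2(FPKM + 1) with limma 3.58.1 (R 4.3.3) over the 10560 genes averaging 1 FPKM or more, with Benjamini-Hochberg adjustment; a fold change on this scale understates that of low genes. Paralogue ratios were compared by exact permutation (scipy 1.17.1), and the fit was tested on simulated data. Depth was estimated from 934 genes with 1 transcript of 450 to 1600 bases; 3 fragments per kilobase equal 0.14 to 0.23 FPKM. Libraries carry no molecular identifiers, so this covers counting error only. p-values measure the spread between these libraries; the study states biological replicates.

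Members and gene lists were chosen with earlier results of these data known. Values in every library are given for called genes, the most abundant gene of each factor, both genes of tested paralogue pairs, Bnc1 and called genes of the other lists. Alternatives were another pseudocount, other filters, no minimum fold change, median-ratio scaling, quantile normalization, a replicate block, leaving out each library and, added after seeing the data, leaving out Bnc1tr/tr replicates 1 and 2 together.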

Additional observations from a re-analysis of the deposited data

How the results depend on the processing

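Eif4ebp1 was called higher under every alternative. Eif1, Eif1a, Eif2b5 and Eif3f were called in the same direction under every alternative in which they were tested but one. That one, chosen after seeing the data, with Bnc1tr/tr replicates 1 and 2 both left out, called 1 gene higher (Eif4ebp1) and 0 lower, and Bnc1 was at -1.12 (adjusted p = 0.065); only 1 Bnc1tr/tr library then remained. It turned Eif3b to -0.0673, Eif3j1 to 0.0674 and Eif6 to -0.0021. A minimum of 5 FPKM left 2 genes called higher, since Eif1a and Eif2b5 were then untested. A pseudocount of 0.1 left 2 called lower, and median-ratio scaling gave 12 (4 higher), where 14.7% of all genes were called lower. Leaving out one library gave 4 to 5 higher and 1 to 5 lower. Without WT replicate 3, Eif2b4 and Eif3d joined the lower and Eif5b the higher calls. The share of all genes called was not computed for single left-out libraries, other pseudocounts or filters, or the replicate block. Changes in these counts were thus not compared with changes over all genes. Of 14 factor sums, 9 were higher in Bnc1tr/tr as deposited and 4 after median-ratio scaling. The replicate block gave 6 higher and 4 lower calls, adding Eif3l (limma adjusted p = 0.029) and Eif5a2. Deviations of genes from their group means correlated at 0.28, -0.03 and 0.12 between same-numbered libraries and at -0.25 to 0.16 between the others. These values cannot decide whether the numbers mark pairs. The paper states that comparisons were made between littermates, but the labels name no litters, so the numbers were not taken as pairs.

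Uncalled genes changed sign as follows. Median-ratio scaling gave log2 fold changes of -0.18 for Eif1ad, -0.0081 for Eif1b, -0.0753 for Eif2ak4, -0.14 for Eif3b, -0.21 for Eif3e, -0.0185 for Eif3i, -0.0463 for Eif4a1, -0.17 for Eif4a3, -0.0088 for Eif4h, -0.0407 for Eif4g2, -0.13 for Eif5 and -0.0057 for Eif6. Quantile normalization gave -0.27 for Eif1ad, -0.24 for Eif2ak4, -0.22 for Eif3b, -0.0035 for Eif3e, -0.0308 for Eif4h and -0.0142 for Eif4g2. Leaving out one library gave ranges of -0.13 to 0.15 for Eif1ad, -0.12 to 0.011 for Eif2a, -0.011 to 0.035 for Eif3e, -0.25 to 0.12 for Eif3j1, -0.0044 to 0.27 for Eif4a1, -0.14 to 0.21 for Eif4a3, -0.19 to 0.0223 for Eif4b, -0.13 to 0.0437 for Eif4g3 and -0.29 to 0.17 for Eif5a. The cause was not tested.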
